A study of Mus musculus with 4 samples.

Results

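A set of 10 genes of the mesenchymal lineage was followed in cultured mouse neural progenitors: the transcription factors *Twist1*, *Twist2*, *Prrx1*, *Prrx2*, *Foxc1*, *Foxc2*, *Snai2*, *Meox1* and *Tbx18*, and the receptor *Pdgfrb*. They were taken by symbol from 21091 entries in each library, and all 10 had an entry. The list was put together after *Twist1* had been seen to be far higher at embryonic day 11 (E11) than at day 14 (E14), so every comparison of stages below describes how the genes were chosen and carries no test. RNA sequencing was carried out on 4 libraries, a CTL and a *Stat3* cKO library from each stage, so that every group is a single library. All embryos were of the C57BL/6 strain, and progenitors dissociated from embryonic brains were grown in suspension with EGF and FGF for 3 days before RNA was taken. In *Stat3* cKO, Cre driven by a rat Nestin promoter and enhancer deletes floxed *Stat3*, a driver that is active in neural progenitors. Control samples are labelled WT, and the study's RNA-seq methods also call these embryos wild-type. The breeding described in its animal methods instead gives controls that carry Nestin-Cre with 1 floxed *Stat3* allele. Which of these was sequenced is not settled here, and CTL is used for the control group. How many embryos went into a library is not given in the sources used here. With no replicates, no difference can be set against a spread between samples, no p-value is given, and words such as higher and lower compare single libraries.

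Mesenchyme is the loose tissue that gives rise to connective tissue, cartilage, bone and the meninges, the membranes around the brain. In the head it comes from the neural crest and from mesoderm. TWIST1 and TWIST2 are basic helix-loop-helix proteins that pair with E proteins and are opposed by ID proteins, which bind E proteins without binding DNA. SNAI2 is a zinc finger repressor of E-cadherin and is known for its part in the epithelial-to-mesenchymal transition (EMT). PRRX1 and PRRX2 are paired-type homeodomain proteins of limb and facial mesenchyme, and MEOX1 is a homeodomain protein of the somites. FOXC1 and FOXC2 are forkhead proteins, of which FOXC1 is needed for the meninges to form, and TBX18 is a T-box protein found in pericytes and other mural cells. PDGFRB is the receptor for PDGF-B that recruits mural cells to vessels.

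Promoter sequences are shown for *Foxc1*, *Twist1* and *Tbx18*, 3 of the 4 highest genes of the list at E11, whose RefSeq window lies at the outermost annotated start, to set letters beside the levels that follow. RefSeq's windows on build GRCm38.p6 were matched by symbol for 6 of the 10 genes. Each run holds the 250 bases before the start, read 5′ to 3′ on the gene's strand, at chr13:31806396-31806645 (plus strand) for *Foxc1*, chr12:33957421-33957670 (plus strand) for *Twist1* and chr9:87731261-87731510 (minus strand) for *Tbx18*. Capitals mark CCAAT or TATAAA on either strand.
Foxc1: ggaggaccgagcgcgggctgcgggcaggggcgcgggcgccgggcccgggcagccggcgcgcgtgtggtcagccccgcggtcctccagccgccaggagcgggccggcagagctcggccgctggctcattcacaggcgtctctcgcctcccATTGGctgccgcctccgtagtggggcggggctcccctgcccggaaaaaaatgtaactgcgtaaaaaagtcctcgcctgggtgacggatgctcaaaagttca
Twist1: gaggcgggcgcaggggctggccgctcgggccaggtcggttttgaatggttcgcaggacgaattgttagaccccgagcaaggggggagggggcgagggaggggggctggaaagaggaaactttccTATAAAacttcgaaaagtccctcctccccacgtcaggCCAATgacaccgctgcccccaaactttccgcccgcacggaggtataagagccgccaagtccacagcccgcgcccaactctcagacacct
Tbx18: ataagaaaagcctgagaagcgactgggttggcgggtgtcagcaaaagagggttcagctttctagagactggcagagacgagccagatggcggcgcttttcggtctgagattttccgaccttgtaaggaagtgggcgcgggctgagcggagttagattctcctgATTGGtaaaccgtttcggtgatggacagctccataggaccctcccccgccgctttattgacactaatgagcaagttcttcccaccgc
A CCAAT match begins 101 bases before the start in *Foxc1*, 89 in *Twist1* and 87 in *Tbx18*. Over both strands, 4 of the 6 windows hold CCAAT, against 33.8% of 32851 windows of this length. The *Twist1* window alone holds TATAAA, 126 bases before the start, against 12.4% of all windows. The palindromic STAT motif TTCNNNGAA was in none of the 6 windows and in 7.02% of all windows. The motifs do not overlap in these windows. A match to letters is a description and not a site of binding.

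Depth and the check of the labels are given once. The unit is FPKM, in which fragments are divided by transcript length in kilobases and by the library's mapped total, and which holds no read counts. Low values were densest at a step that, if it is 1 fragment, would put each library at about 38.3 to 48.3 M fragments. From 25.3% to 29.6% of low values lay within 0.1 of a whole number of such steps, little more than evenly spread values would give. The step itself is thus uncertain, counts could not be recovered and the fragment numbers below are approximate. *Stat3* had 7.41 FPKM (CTL) and 6.74 FPKM (*Stat3* cKO) at E11, against 27.6 (CTL) and 9.55 (*Stat3* cKO) at E14, which gives *Stat3* cKO 0.911 of the CTL level at E11 and 0.346 of it at E14. A loss of *Stat3* RNA is thus not shown at E11, and the E11 *Stat3* cKO library is named by its label, so ratios of genotypes at E11 compare libraries labelled so. The paper describes the knockout by this Cre line as reached in neural progenitors by E14. The values cover the whole gene and not only the floxed exons. The Y-linked gene *Ddx3y* was at 0 in both E11 libraries, and at E14 it had 0.0569 FPKM (CTL) and 25.1 FPKM (*Stat3* cKO), so genotype and embryo sex cannot be told apart at E14.

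At E11 the list was led by *Foxc1*, and 9 of the 10 genes had at least 1 FPKM in both libraries. *Foxc1*, listed on chromosome 13 from 31898515 to 31902504, had 67.1 FPKM (CTL) and 80.6 FPKM (*Stat3* cKO) at E11, against 0.585 (CTL) and 0.395 (*Stat3* cKO) at E14. In bulk RNA, fewer cells of a type and less RNA per cell cannot be told apart, here and below. Both E11 libraries were far above both E14 libraries, by 115-fold in CTL and 204-fold in *Stat3* cKO. At E11 *Foxc1* was above 94.9% of all entries in CTL and 95.6% in *Stat3* cKO, and at E14 above 40.5% and 37.9%. Its paralog *Foxc2*, on chromosome 8 from 123640071 to 123642794, had 9.23 FPKM (CTL) and 13.0 FPKM (*Stat3* cKO) at E11, against 0.113 (CTL) and 0.0125 (*Stat3* cKO) at E14. The last value rests on about 1.5 fragments, so every ratio that uses it is imprecise. In CTL, *Foxc2* was 81.6-fold lower at E14. *Foxc1* made up 87.9% of the FPKM of the pair in E11 CTL and 86.1% in E11 *Stat3* cKO. The transcripts of the pair share 4 stretches of 50 bases, 0.149% of those of *Foxc2*, so few reads could be assigned to the wrong one.

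*Twist1*, listed on chromosome 12 from 34642536 to 34644696, had 42 FPKM (CTL) and 35.2 FPKM (*Stat3* cKO) at E11, against 0.450 (CTL) and 0.0353 (*Stat3* cKO) at E14. The E14 values correspond to about 30 fragments in CTL and about 2.6 in *Stat3* cKO, against about 3303 and 2198 at E11. In CTL the level at E14 was 93.4-fold lower. *Twist2*, on chromosome 1 from 93698054 to 93744604, was much the lower of the pair, with 2.38 FPKM (CTL) and 1.2 FPKM (*Stat3* cKO) at E11, against 0.0232 (CTL) and 0.0224 (*Stat3* cKO) at E14. The E14 values rest on about 2.4 and 2.5 fragments. *Twist1* made up 94.6% of the pair's FPKM in E11 CTL and 96.7% in E11 *Stat3* cKO, and the pair shares no stretch of 50 bases.

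*Prrx1* kept the highest level of the 10 at E14. Listed on chromosome 1 from 165175250 to 165243781, it had 25.5 FPKM (CTL) and 16.6 FPKM (*Stat3* cKO) at E11, against 4.13 (CTL) and 4.23 (*Stat3* cKO) at E14. It was 6.17-fold lower at E14 in CTL and 3.94-fold lower in *Stat3* cKO, and the E14 values still rest on about 1105 and 1238 fragments. *Prrx2*, on chromosome 2 from 30700887 to 30736767, had 9.28 FPKM (CTL) and 12.3 FPKM (*Stat3* cKO) at E11, against 1.28 (CTL) and 1.31 (*Stat3* cKO) at E14. It was 7.27-fold lower at E14 in CTL and 9.38-fold lower in *Stat3* cKO. In CTL the PRRX genes had the smallest fold differences between stages of the 8 genes that reached the minimum of 1 FPKM.

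*Tbx18*, listed on chromosome 9 from 87597635 to 87626095, had 23.9 FPKM (CTL) and 27.1 FPKM (*Stat3* cKO) at E11, against 0.433 (CTL) and 0.179 (*Stat3* cKO) at E14. It was 55.2-fold lower at E14 in CTL and 151-fold lower in *Stat3* cKO. *Snai2*, on chromosome 16 from 14705952 to 14709475, was low throughout, with 2.11 FPKM (CTL) and 1.76 FPKM (*Stat3* cKO) at E11, against 0.0613 (CTL) and 0.111 (*Stat3* cKO) at E14. The E14 values correspond to about 5.1 and 10 fragments. *Meox1*, on chromosome 11 from 101738824 to 101755668, was hardly detected in any library, at 0.185, 0.0535, 0.0378 and 0.0728 FPKM in the same order, or about 20, 4.6, 3.5 and 7.3 fragments. *Meox1* was the only member whose *Stat3* cKO value at E14 was above that at E11. *Tbx18* and *Twist2* each share exonic bases with an annotated gene on the opposite strand (*D030062O11Rik* and *Gm29100*). The library protocol gives no strand, so reads of these pairs may not be separable.

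*Pdgfrb*, the only receptor on the list, lies on chromosome 18 from 61204804 to 61244721. It had 13.2 FPKM (CTL) and 14.4 FPKM (*Stat3* cKO) at E11, against 0.625 (CTL) and 1.58 (*Stat3* cKO) at E14. The E14 libraries were lower than both E11 libraries, by 21.1-fold in CTL and 9.08-fold in *Stat3* cKO.

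**Figure D1:**
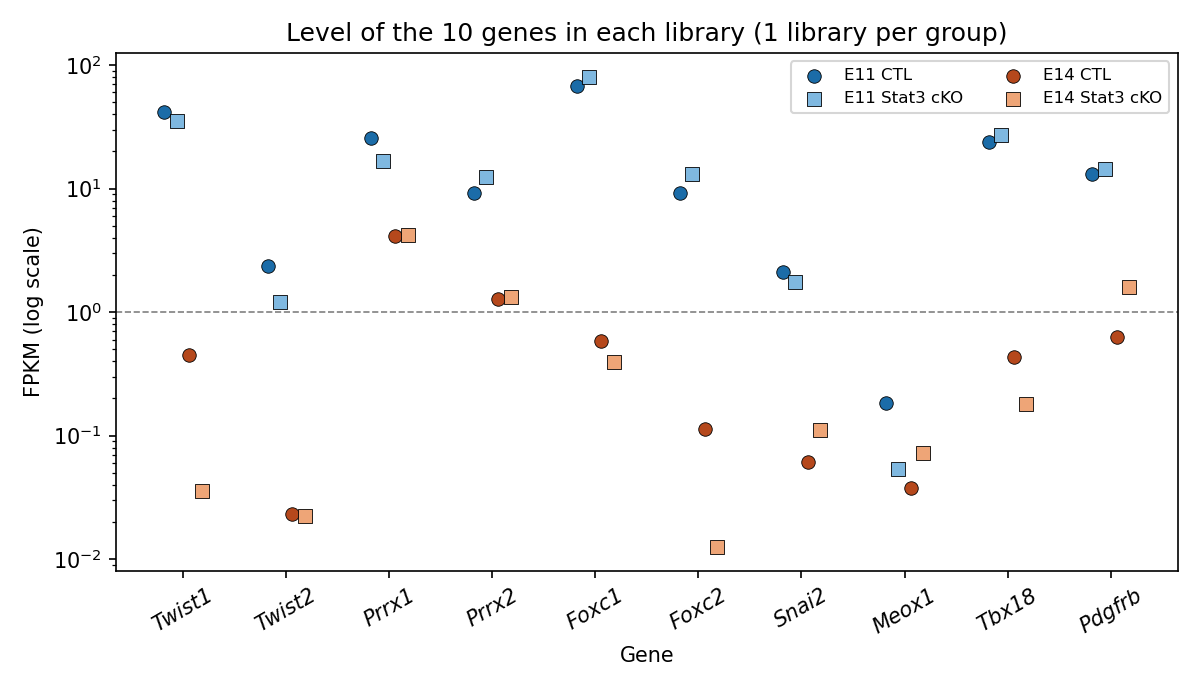
FPKM of each gene on a log axis, with 1 point for each of the 4 libraries (circles CTL, squares *Stat3* cKO, blue E11, orange E14) and a dashed line at 1 FPKM. In 9 of the 10 genes both E11 points lie above both E14 points (36.6% of all entries), and *Meox1* stays under 0.2 FPKM throughout.

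By level, the E11 CTL library ran *Foxc1*, *Twist1*, *Prrx1*, *Tbx18*, *Pdgfrb*, *Prrx2*, *Foxc2*, *Twist2*, *Snai2*, *Meox1*. In E11 *Stat3* cKO 3 neighbouring pairs changed places, *Prrx1* with *Tbx18*, *Prrx2* with *Foxc2* and *Twist2* with *Snai2*. At E14 the order was another one, with *Prrx1* first in both libraries and *Prrx2* and *Pdgfrb* next, in that order in CTL and the reverse in *Stat3* cKO. With 1 library a group, neighbours in these orders cannot be told apart beyond their spread. The summed FPKM of the 10 genes was 194.9 (CTL) and 202.4 (*Stat3* cKO) at E11, against 7.74 (CTL) and 7.96 (*Stat3* cKO) at E14. *Foxc1* and *Twist1* together held most of the sum at E11, with 34.4% and 21.6% in CTL. *Prrx1* held 13.1% of it in E11 CTL and 53.4% in E14 CTL. At E14 *Pdgfrb* held 8.07% of the sum (CTL) and 19.9% (*Stat3* cKO). These shares are taken within a library and do not depend on scaling between libraries.

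**Figure D2:**
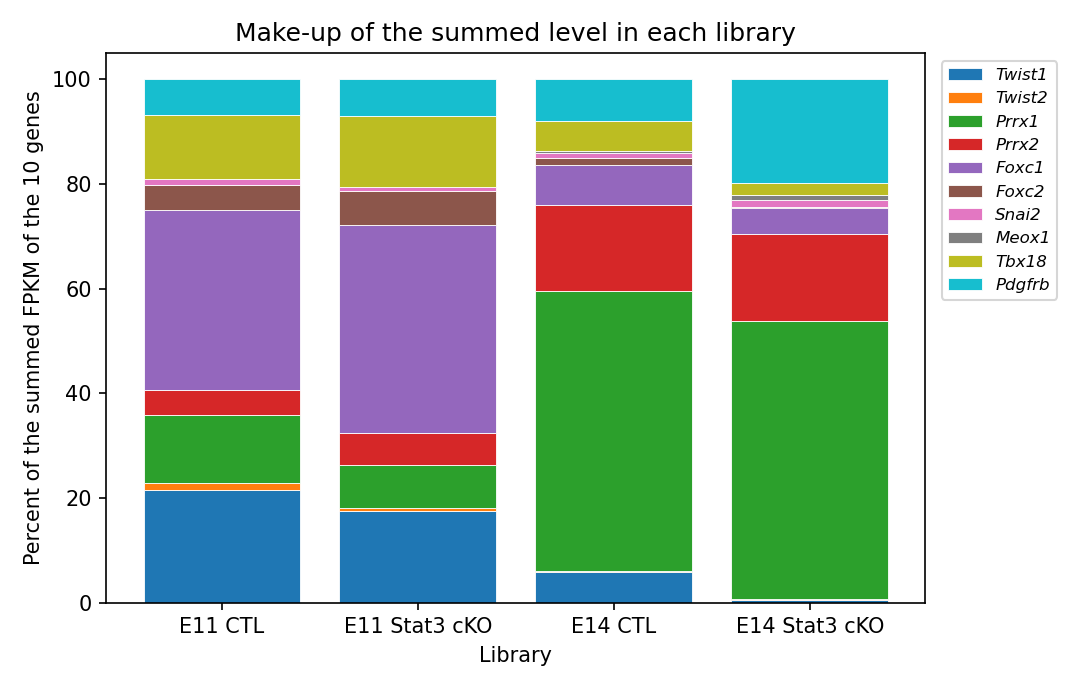
Stacked bars give each gene's percent of the summed FPKM of the 10 genes, 1 bar for each library. *Foxc1* takes the largest part of both E11 bars (34.4% and 39.8%) and *Prrx1* of both E14 bars (53.4% and 53.2%).

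For a common scale across genes, ratios were called at 2-fold, over genes whose mean across the 4 libraries reached 1 FPKM. Of the 10, 8 had such a mean, all except *Twist2* and *Meox1*. A gene that passes this minimum only through its E11 values has to differ between stages, so the counts that follow describe the choice of genes. All 8 were at least 2-fold lower at E14 in CTL, where 12.5% of 12430 genes were. All 8 were also lower in *Stat3* cKO, where 11.7% of 12426 genes were (and 10.1% were 2-fold higher). Their median stage ratio (log2, E14 over E11) was -5.45 for CTL and -5.61 for *Stat3* cKO, beside 0.21 and 0.058 over all genes. With no minimum, 10 of 10 were lower in CTL (25.3% of all) and 9 of 10 in *Stat3* cKO (17.4% of all). *Snai2* lay just inside the minimum and *Twist2*, with a mean of 0.905 FPKM, just outside it.

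**Figure D3:**
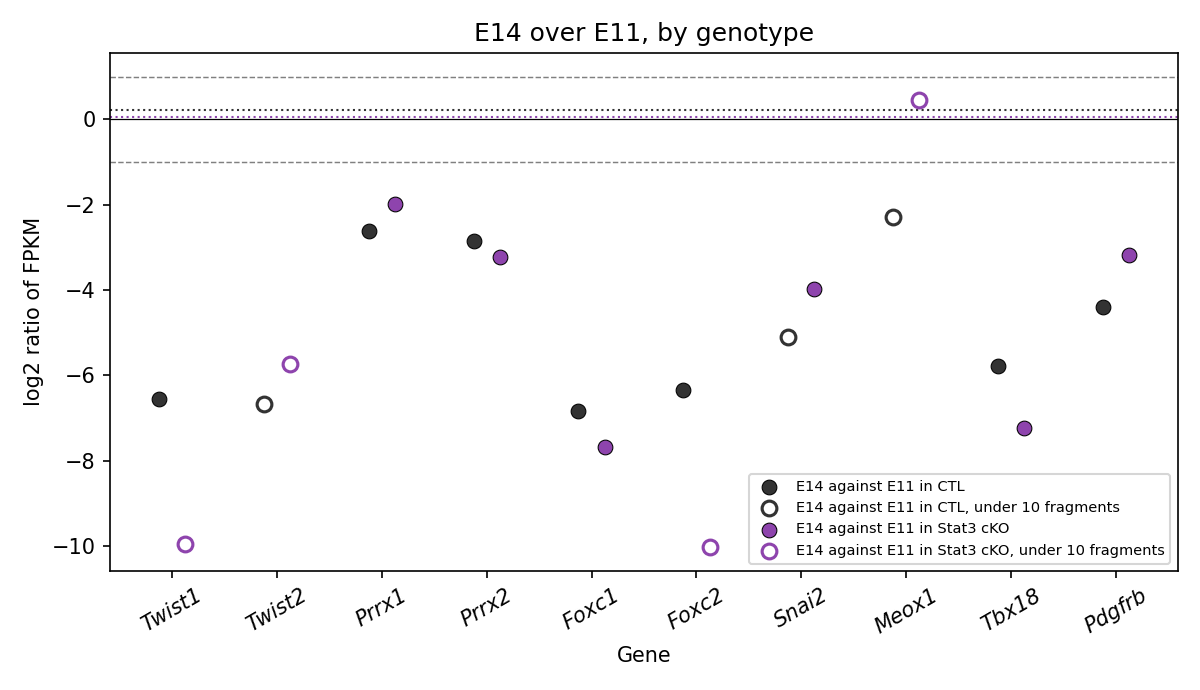
The log2 ratio of E14 to E11 for each gene, in CTL (black) and *Stat3* cKO (purple), with dotted lines at the medians of all genes (0.21 and 0.058) and dashed lines at 2-fold. Open circles mark ratios in which either value rests on under about 10 fragments. All points but *Meox1* in *Stat3* cKO lie below the lower dashed line, and *Prrx1* lies nearest to it in *Stat3* cKO.

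Between the libraries labelled *Stat3* cKO and CTL at E11, none of the 8 genes was 2-fold lower or higher in *Stat3* cKO, where 1.12% and 0.209% of all genes were, and this count from single libraries has no test behind it. The median genotype ratio (log2, *Stat3* cKO over CTL) was 0.15 over the 8 (0.059 over all genes), and -0.065 with all 10. With no minimum, 1 of 10 was 2-fold lower (*Meox1*; 9.11% of all genes) and 0 of 10 higher (2.3% of all genes). *Foxc2* had the highest ratio, 1.41, followed by *Prrx2* with 1.33 and *Foxc1* with 1.2. *Tbx18* had 1.13 and *Pdgfrb* 1.09. On the other side, *Prrx1* had 0.653, *Snai2* 0.831 and *Twist1* 0.839. *Twist2* had 0.504, from about 290 fragments in CTL and 116 in *Stat3* cKO. After centring on the all-gene median (log2 ratio -1.05) or upper-quartile scaling (-1.06), *Twist2* was just past 2-fold lower. The paralogs of the PRRX pair thus went opposite ways, and *Prrx1* made up 73.3% of the pair's FPKM in E11 CTL and 57.4% in E11 *Stat3* cKO, beside 76.4% and 76.3% at E14. The genes were picked on the stage difference and not on these ratios, but the 2 kinds of comparison share libraries.

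Between genotypes at E14, the genes split. *Pdgfrb* was 2.54-fold higher in *Stat3* cKO, on about 139 fragments in CTL and 385 in *Stat3* cKO. *Tbx18* was 2.41-fold lower, on about 83 and 38 fragments. With a pseudocount of 0.1 FPKM, which shrinks ratios of low values, the log2 ratio of *Tbx18* was -0.93 and no longer past 2-fold, and with 1 FPKM that of *Pdgfrb* was 0.67. *Foxc1* was lower by 1.48-fold, on about 140 and 103 fragments, which is short of the 2-fold mark. *Twist1* and *Foxc2* were also past 2-fold lower, but their *Stat3* cKO values rest on about 2.6 and 1.5 fragments, against about 30 and 13 in CTL. *Prrx1* (ratio 1.02) and *Prrx2* (ratio 1.03) were nearly level. Of the 8 genes, 3 were thus 2-fold lower and 1 was 2-fold higher, where 1.69% and 1.85% of all genes were. Over the 684 analysed genes whose mean over the E14 libraries was below 1 FPKM, a class that was defined after the values had been seen and that holds 5 of the 8, 4.82% were 2-fold lower and 8.77% higher. With no minimum, 3 of 10 were 2-fold lower (4.82% of all genes) and 1 of 10 higher (8.21% of all genes). The median log2 ratio of the 8 was -0.27, beside -0.079 over all genes, and it was -0.0068 with all 10.

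**Figure D4:**
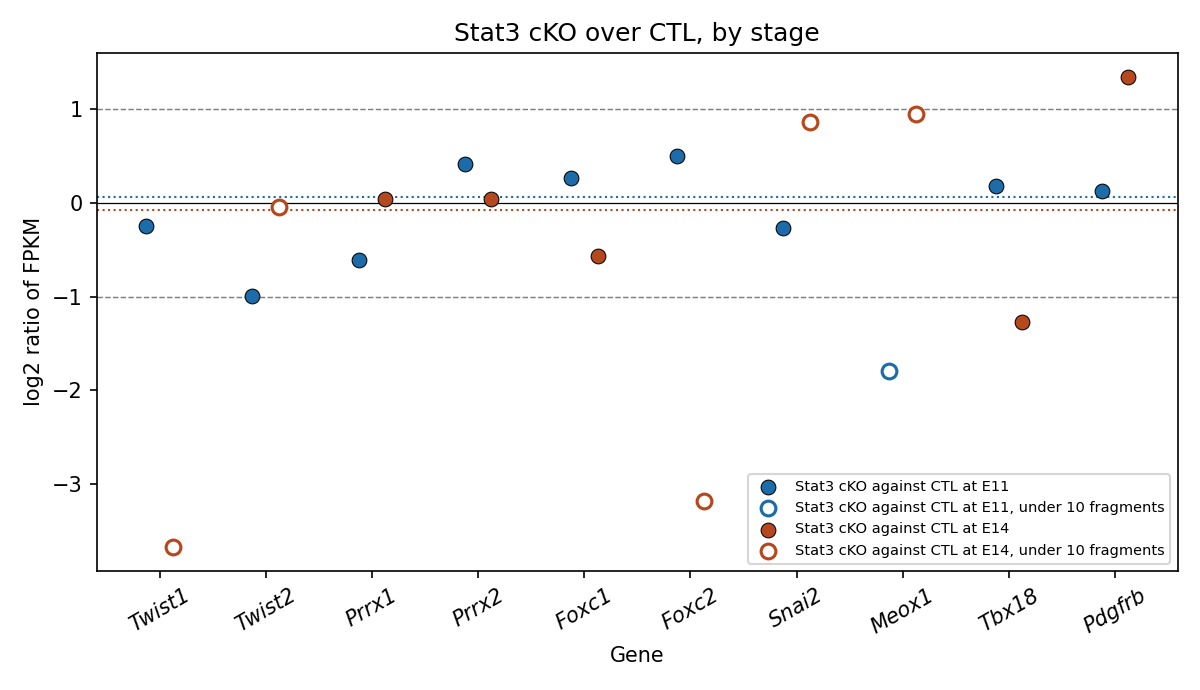
The log2 ratio of *Stat3* cKO to CTL for each gene at E11 (blue) and E14 (orange), with dotted lines at the medians of all genes and dashed lines at 2-fold. Open circles mark ratios in which either value rests on under about 10 fragments. Filled points past the dashed lines are *Pdgfrb* (2.54-fold higher) and *Tbx18* (2.41-fold lower), both at E14.

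Whether the libraries carry the cell types that these genes mark was read from lists of other genes. Of 29 other mesenchymal transcription factors measured, 20 reached 1 FPKM in the CTL library at E11, 17 in the *Stat3* cKO library and none in either E14 library. Their summed level was 210.9, 204.7, 3.32 and 2.86 FPKM for CTL and *Stat3* cKO at E11 and then for CTL and *Stat3* cKO at E14. By mean over the 4 libraries, the highest were *Foxd1*, a forkhead gene of stromal and meningeal precursors, with 47.6, 53.2, 0.117 and 0.0655 FPKM, *Osr1*, with 24.2, 19.4, 0.0548 and 0.0539, and *Alx1*, a gene of facial mesenchyme, with 19.0, 21.6, 0.0611 and 0.0184. Of the 16 that reached the minimum of 1 FPKM, all 16 were at least 2-fold lower at E14 in CTL (12.5% of all genes), and 15 of the 15 with a ratio were in *Stat3* cKO (11.7% of all genes). Like the members, a gene that reaches this minimum through its E11 values alone has to differ. *Shox2* was listed at 0 in E14 *Stat3* cKO. Between genotypes at E11, 2 of the 16 were 2-fold lower in *Stat3* cKO (1.12% of all genes) and 0 higher (0.209% of all genes). At E14, 4 of 15 were lower and 0 higher, where 1.69% and 1.85% of all genes were, and 4.82% and 8.77% of the genes below 1 FPKM at E14. These 4 (*Alx1*, *Foxf2*, *Hic1* and *Osr2*) had at most 0.140 FPKM in the *Stat3* cKO library, and with no minimum 4 of 26 were lower and 3 higher, where 4.82% and 8.21% of all genes were.

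Fibroblast and meningeal markers moved in the same direction as the 10 genes. Their 17 members summed to 1789 FPKM (CTL) and 1502 FPKM (*Stat3* cKO) at E11, against 41.4 (CTL) and 33.4 (*Stat3* cKO) at E14, with none at 0 in any library. *Col3a1*, a fibrillar collagen gene, had 674, 586, 7.64 and 4.29 FPKM in that order. *Col1a2* had 227, 215, 2.59 and 1.86, and *Lum*, which encodes the collagen-binding proteoglycan lumican, 165, 172, 0.977 and 0.388. All 17 were at least 2-fold lower at E14 in CTL (12.5% of all genes), and 16 of 17 were in *Stat3* cKO (11.7% of all genes), where *Thy1* was the exception with 1.75 FPKM at E11 and 2.01 at E14. All 17 reached the minimum of 1 FPKM, some through their E11 values alone, and such a gene has to differ between stages. The list was also chosen with earlier results known, so these counts are a description. Between genotypes, 3 of the 17 were 2-fold lower in *Stat3* cKO at E11 (1.12% of all genes) and 0 higher. At E14, *Fap*, *Lum* and *Lamc3* were 2-fold lower (1.69% of all genes) and *Crabp2* higher (1.85% of all genes), all from values below 1 FPKM, down to 0.0226 for *Fap* in *Stat3* cKO and 0.0500 for *Crabp2* in CTL. The part of such cells in the levels of the 10 genes was not tested.

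Markers of mural cells did not follow as one group. Of the 15, 8 were higher in both E11 libraries than in both E14 libraries (36.6% of all entries), and the summed level ran from 64.6 FPKM in E11 CTL and 48.3 in E11 *Stat3* cKO to 37.2 and 37.3 at E14. With no minimum, 10 of 15 were 2-fold lower and 2 higher at E14 in CTL, where 25.3% and 12.4% of all genes were. For *Stat3* cKO, 7 were lower and 3 higher, where 17.4% and 11.8% of all genes were. Those lower in CTL included *Anpep* (36.4-fold), *Abcc9* (20.4-fold), *Kcnj8* (12.6-fold), *Cox4i2* (9.82-fold) and *Ndufa4l2* (8.03-fold), of which *Cox4i2* alone reached the minimum of 1 FPKM, and which were named after their values were seen. *Rgs5*, a gene of brain pericytes also named after its value was seen, was between 0.411 and 0.553 FPKM in all 4 libraries. *Vtn* had 35.7 FPKM (CTL) and 24.2 FPKM (*Stat3* cKO) at E11, against 2.41 (CTL) and 1.19 (*Stat3* cKO) at E14. *Mcam* ran the other way, with 4.44, 3.85, 22.1 and 16.4 FPKM, as did *Cspg4*, with 0.560, 0.563, 4.84 and 5.35. *Notch3*, a receptor of mural cells, was at 7.89 and 8.72 FPKM at E11, and at 3.83 (CTL) and 8.15 (*Stat3* cKO) at E14, a ratio of 2.13 beside the 2.54 of *Pdgfrb*. Of the 6 mural markers that reached the minimum, 4 had the higher value in the *Stat3* cKO library at E14 and 2 the lower, with *Notch3* past 2-fold higher (1.85% of all genes) and *Vtn* past 2-fold lower (1.69%). With no minimum, 11 of the 15 had the higher value and 4 the lower, of which 4 were past 2-fold higher (8.21% of all genes) and 1 lower (4.82%).

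Markers of some other tissues were low. The 12 endothelial markers summed to 6.75 and 6.26 FPKM at E11 and to 1.76 and 2.60 at E14, with *Cdh5* at 1.89 FPKM (CTL) and 1.35 FPKM (*Stat3* cKO) at E11, against 0.0416 (CTL) and 0.0251 (*Stat3* cKO) at E14, and with *Sox17* at 0 in E14 CTL. Of the 9 blood and microglia markers measured, 2 reached 1 FPKM in E11 CTL and none in the other libraries. The 8 epithelial and ectoderm markers summed to at most 3.31 FPKM. The 11 neural crest markers were not low, with sums of 33.2 and 35.1 FPKM at E11 and 40.3 and 69.8 at E14 and 7 of 11 at or above 1 FPKM in each E11 library. They were split, with *Tfap2b* and *Pax3* lower at E14 and *Sox10*, which also marks the oligodendrocyte lineage, at 0.215, 0.134, 6.74 and 20.6 FPKM. The 12 neural progenitor markers were all above 1 FPKM in every library, and they summed to 1032 and 1183 FPKM at E11 and to 5994 and 6964 at E14. *Fabp7*, a fatty acid binding protein gene of radial glia, made up most of the E14 sums with 5245 and 5929 FPKM, and the other 11 summed to 516 and 589 FPKM at E11 and to 748.5 and 1035 at E14. Of the 12, 2 were 2-fold lower and 3 higher at E14 in CTL, where 12.5% and 14.6% of all genes were. For *Stat3* cKO, 2 were lower and 5 higher, where 11.7% and 10.1% of all genes were. All entries together summed to 948738 (CTL) and 806587 (*Stat3* cKO) FPKM at E11, and to 1394045 and 1461770 at E14. A higher sum of a list at E14 therefore need not be a higher share of its library. The 8 neuron markers also exceeded 1 FPKM in every library, with sums of 726 and 759 FPKM at E11 and 1042 and 891 at E14. The tissue label thus had its markers in all 4 libraries, beside a mesenchymal set at E11.

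**Figure D5:**
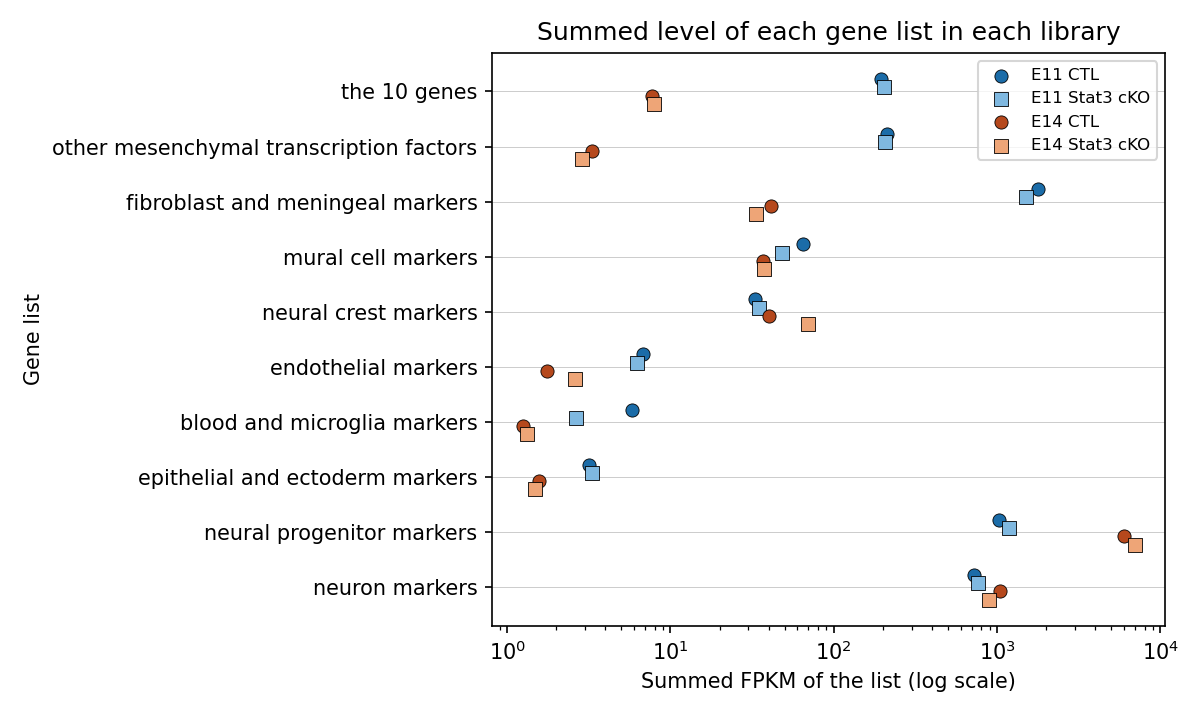
Summed FPKM of each gene list on a log axis, 1 point for each library (circles CTL, squares *Stat3* cKO, blue E11, orange E14). The 10 genes, the other mesenchymal transcription factors and the fibroblast and meningeal markers have both E11 points far above both E14 points.

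Most factors that work beside TWIST and SNAI2 were not past 2-fold between stages. Among the 10 other EMT transcription factors, 7 had a mean of at least 1 FPKM, and none of these 7 was 2-fold lower or higher at E14 in either genotype, where 12.5% and 14.6% of genes were in CTL. The shares for *Stat3* cKO were 11.7% and 10.1%. With no minimum, 3 of 10 were lower in CTL (*Snai1*, *Snai3* and *Gsc*), near the 25.3% of all genes at that setting, and 1 of 8 in *Stat3* cKO, beside 17.4%. *Tcf12*, an E protein, had 114, 119, 85.4 and 90.3 FPKM in the order used above. *Zeb1*, a zinc finger repressor like SNAI2, had 23.5, 26.1, 37.6 and 27.8. *Snai1*, below the minimum and named after its value was seen, had 1.78 FPKM in both E11 libraries, with 0.0396 (CTL) and 0.0784 (*Stat3* cKO) at E14, like *Snai2*. Among the 7 TWIST partners and ID genes, 2 were at least 2-fold lower at E14 in CTL (12.5% of all genes) and 2 in *Stat3* cKO (11.7% of all genes). *Id3* had 341, 407, 131 and 133 FPKM, and *Id1* 90.2, 110, 40.5 and 35.4, whereas *Id2* had 119.5, 143.8, 146.7 and 143.2. Of 6 EMT effector genes past the minimum, 3 were 2-fold lower and 1 higher at E14 in CTL (12.5% and 14.6% of all). For *Stat3* cKO, 4 were lower and 1 higher, where 11.7% and 10.1% of all genes were. With no minimum, 5 of 12 were lower and 2 higher in CTL (25.3% and 12.4% of all genes). The counts for *Stat3* cKO were then 6 and 3 (17.4% and 11.8%). *Vim* was 2.67-fold higher at E14 in CTL, and *Cdh2* was nearly level, with 43.4, 53.7, 46.9 and 44.0 FPKM. *Fn1* had 21.0, 29.0, 0.899 and 0.950 FPKM and *Cdh11*, a mesenchymal cadherin gene, 133, 139, 12.5 and 18.3.

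The other genes of the PDGF family went different ways between stages. *Pdgfra*, its sister receptor and a gene of mesenchyme and of oligodendrocyte precursors, had 53.1 FPKM (CTL) and 68.7 FPKM (*Stat3* cKO) at E11, against 35.9 (CTL) and 61.2 (*Stat3* cKO) at E14, so it was not past 2-fold in any comparison. Relative to CTL, its *Stat3* cKO level was 1.70 times as high at E14 and 1.29 times at E11. The ligand gene *Pdgfa* was higher at E14, with 2.76, 2.06, 8.09 and 8.31 FPKM, and *Pdgfc* had 3.57, 2.19, 1.95 and 1.41. *Pdgfb*, the ligand gene of PDGFRB in vessels, was under 0.3 FPKM in all 4 libraries. Of the 4 other genes of the family with a mean of at least 1 FPKM, *Pdgfrl* was 2-fold lower and *Pdgfa* 2-fold higher at E14 in both genotypes, where 12.5% and 14.6% of all genes were for CTL. *Pdgfrl*, a receptor-like gene, had 3.34, 2.73, 0.291 and 0.481 FPKM. *Pdgfd*, a ligand gene below the minimum that was named after its value was seen, had 1.35, 1.51, 0.130 and 0.248.

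The genes with a pattern most like that of *Twist1* over the 4 libraries were found by the distance between log2(FPKM + 0.1) profiles, each centred on its own mean. The 10 nearest were *Col3a1*, *Lum*, *Igf2*, *Apod*, *Alx1*, *Foxc1*, *Tgfbi*, *Col1a2*, *Serpinf1* and *Gpc3*, with distances from 0.938 to 1.26. *Foxc1* was the nearest of the listed genes, in place 6, followed by *Foxc2* in place 14 and *Tbx18* in place 15. *Snai2* (place 296), *Pdgfrb* (314), *Prrx2* (383) and *Prrx1* (551) were farther away. With a pseudocount of 1 FPKM, 2 of the 10 nearest genes were shared, *Igf2* and *Serpinf1*, and the places of *Tbx18*, *Foxc1* and *Foxc2* were 21, 24 and 91. *Pdgfrb* was then in place 188, *Prrx2* in 269, *Prrx1* in 361 and *Snai2* in 685. The measure rests on 4 values per gene and on the 2 stages, which share the difference that picked *Twist1*.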

How the data were processed

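Total RNA of 4 cultures, 1 library per group, had been sequenced on an Illumina instrument. After a FastQC check, the authors used the TopHat and Cufflinks pipeline and deposited FPKM values, 1 per entry and library. The submitters' processing notes name Bowtie 0.12.2 and the builds mm8 and mm9 with no role. Listed starts were counted from 0 (the listed span equals the RefSeq gene length in 6630 of 19404 entries with a symbol, against 447 when counted from 1), so 1 was added here. The build is not settled, and apart from this shift of the start the positions are those listed.

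From the deposited FPKM values, plain ratios were formed without a pseudocount over 12449 genes whose mean reached 1 FPKM. A value of 0 gave no ratio, and 2-fold marked a call. With 1 library per group, no test was run. Approximate fragments came from 3190 genes with 1 GENCODE M21 transcript of over 600 bases. The step of a library was the densest value of their FPKM times length, searched within a range set in advance. Lengths are those of the longest transcript. Computation was in Python 3.11.15 (numpy 2.4.6; pandas 2.3.3), with matplotlib 3.10.9 for plots, and the steps were tested on simulated data.

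The members and the 14 other lists were chosen with earlier results of these data known. The result of 1 of these lists is not reported here. Genes named outside the 10 were the 3 highest of a list, its highest and lowest ratio in a comparison, the 10 nearest to *Twist1*, and *Stat3*. Others were named after their values were seen. Of the lists, 1 mesenchymal symbol (*Foxf1a*) and 2 globin symbols had no entry of that exact name.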

Additional observations from a re-analysis of the deposited data

Results flagged for a closer look

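In 4 of the 10 genes the ratio of *Stat3* cKO to CTL lay on opposite sides of 1 at the 2 stages by at least 1.2-fold each, as did 16.2% of all genes with both ratios (8.44% of those that reached a mean of 1 FPKM). The difference was not tested, since each group is 1 library. *Foxc1* had a log2 ratio of 0.26 at E11 and -0.57 at E14, a difference of -0.83, on about 103 or more fragments in each library. Its E11 value lay just past 1.2-fold and fell short of it after centring on the all-gene median (0.21) and with upper-quartile scaling (0.20). *Foxc2* had 0.50 and -3.18, a difference of -3.68, with about 1.5 fragments in E14 *Stat3* cKO. *Snai2* had -0.27 and 0.86, a difference of 1.13, with about 5.1 fragments in E14 CTL, and its E11 value fell short of 1.2-fold with a pseudocount of 0.1 FPKM (-0.25). *Meox1* had -1.79 and 0.94, a difference of 2.73, with about 3.5 fragments in E14 CTL. With a pseudocount of 1 FPKM, none of the 4 was past 1.2-fold on both sides.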

How the results depend on the processing

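The counts of genes past 2-fold between stages changed by less than 1.5 times under every alternative that was tried, and the median log2 ratios stayed on the same side of 2-fold in all 4 comparisons. The size of the stage medians did depend on the setting, with -3.16 (CTL) and -3.18 (*Stat3* cKO) at a pseudocount of 1 FPKM and -5.79 and -7.24 at a minimum mean of 5 FPKM. The E14 genotype median was -0.056 at a pseudocount of 1 FPKM and -0.57 at a minimum of 5 FPKM. Between genotypes at E11, the count of genes 2-fold lower was 0 and became 1 with no minimum (*Meox1*) and 1 with a threshold of 1.5 (*Prrx1*). At E14, the count of genes 2-fold lower was 3, and it was 1 with a pseudocount of 0.1 FPKM and 0 with a pseudocount of 1 FPKM. The count of genes 2-fold higher at E14 was 1, and it was 0 with a pseudocount of 1 FPKM, 0 with a threshold of 3, 2 with a threshold of 1.5 and 2 with upper-quartile scaling. A pseudocount shrinks ratios of values below 1 FPKM by its construction. With a pseudocount of 1 FPKM, the log2 ratio of *Pdgfrb* at E14 was 0.67, that of *Tbx18* -0.28 and that of *Twist1* -0.49. Upper-quartile scaling moved the median of all genes by -0.37 between stages in CTL, by -0.15 in *Stat3* cKO and by 0.15 between genotypes at E14. Under either scaling only the ratio of *Twist2* at E14 changed sign. No paired analysis was possible because each group holds 1 library and the labels give no replicate numbers. Fragment numbers limit *Twist1*, *Twist2*, *Foxc2*, *Snai2* and *Meox1* at E14.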

Other observations

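Of 33 genes whose mean reached 1 FPKM on the lists of other mesenchymal transcription factors and of fibroblast and meningeal markers, 9 differed between genotypes at E11 by more than 1.53-fold, the largest difference among the members with such a mean. All 9 were lower in *Stat3* cKO, where 3.34% of all analysed genes were lower by more than 1.53-fold and 1.83% higher. The 1.53-fold mark was chosen after the values had been seen. *Ogn*, which encodes the proteoglycan osteoglycin, had 28.8 FPKM in E11 CTL and 3.77 in E11 *Stat3* cKO, 7.64-fold lower. *Barx1*, a homeobox gene of facial mesenchyme, had 5.49 and 1.17 FPKM, 4.70-fold lower, and *Thy1* had 8.06 and 1.75. On the list of EMT effector genes, *S100a4*, which encodes a calcium-binding protein of fibroblasts, went the other way, with 3.94 and 16.7 FPKM, 4.23-fold higher. At E14, 12 of the 17 fibroblast and meningeal markers were lower in *Stat3* cKO and 5 higher, with a median log2 ratio of -0.61, beside 60.1% lower and a median of -0.079 over all analysed genes. No difference between single libraries here has a test.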
